A study of Homo sapiens with 8 samples.

Results

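The fibrillar collagen genes COL1A1, COL1A2, COL3A1, COL5A1, COL5A2, COL5A3 and COL11A1 were followed by symbol through RNA sequencing of LX-2 cells, 7 genes of the 16796 in the count files. LX-2 is an immortalized line of human activated hepatic stellate cells (HSCs), the cells that turn into the collagen-producing myofibroblasts of the injured liver (MF-HSCs). Control cells received vehicle (DMSO) and OGTi cells received OSMI-1, a small molecule inhibitor of O-GlcNAc transferase (OGT), at 50 µM, and both groups grew in DMEM with 5% serum and were harvested at 24 h. Each group had 4 libraries, which the labels call biological replicates, and the study's methods pair the libraries of the same replicate number. The whole data set comes from 1 cell line, so the replicates are cultures and not donors. The study used the comparison to define the effect of blocking protein O-GlcNAcylation on gene expression in MF-HSCs at large. Here it was read for the collagen encoding genes.

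Fibrillar collagens are trimers of long chains that wind into a helix, are trimmed outside the cell and line up side by side into fibrils. Type I collagen, built from a pair of COL1A1 chains and a single COL1A2 chain, is the bulk of scar tissue in the liver, and type III collagen, a trimer of COL3A1 chains alone, is laid down with it. Type V collagen starts fibrils and limits their diameter. Its common form holds a pair of COL5A1 chains and a COL5A2 chain, and a rarer form also holds the COL5A3 chain. COL11A1 encodes a chain of type XI collagen, the counterpart of type V in cartilage, which can replace type V chains in mixed trimers.

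The libraries held 24166756 to 28201215 counts each, and 12829 to 13180 genes reached 10 counts. No library was a copy of another of its group, since every such pair differed by more than counting error (chi-square per degree of freedom of 8.66 to 36.2). OGT mRNA lay between 5351 and 5977 normalized counts (counts divided by the library's size factor) in control libraries and between 3534 and 4695 in OGTi libraries, and an inhibitor of the enzyme need not change it. Of 14 stellate cell or myofibroblast markers that are not fibrillar collagen genes, 9 had a control mean of at least 10, among them TAGLN, PDGFRB, ACTA2 and VIM. The summed level of all 17 stellate markers, fibrillar collagen genes included, was 216846 to 256793 in control and 164417 to 199871 in OGTi. COL1A1 alone took 80369 to 92289 of it in control and 38220 to 48489 in OGTi. Much of the fall in this sum is thus the collagen result itself. VIM overlapped between the groups (81899 to 101437 and 79105 to 109557). Of the 17 markers, 8 were called lower, COL1A1, COL1A2 and COL3A1 among them, and 2 higher. Over all genes with an adjusted p-value, 24.0% were called lower and 22.7% higher. ACTA2 went from 253.6 to 920.5 in control to 120.5 to 234.4 in OGTi, while NGFR, a neurotrophin receptor, went from 74.7 to 151.2 to 1121 to 2577. DES, LRAT, LUM, DCN and HGF, which mark stellate cells or fibroblasts in tissue, were at or near 0, with at most 6.01 normalized counts in any library. Some listed markers of other cell types were low. PTPRC (leukocytes) reached at most 11.5, KRT19 and CDH1 (epithelium) at most 3.01, and APOA1 (hepatocytes) at most 1.0. The endothelial marker CDH5 was at 23.4 to 45.1 in control and 1.0 to 5.77 in OGTi, and VWF at 16.6 to 41.3 and 12.0 to 22.85. Other listed markers were present, with CD14 at up to 92.4, SERPINA1 at up to 74.0 and KRT7 at up to 141.3, and the hepatocyte marker CYP2E1 was at 27.3 to 62.9 in control and 155.7 to 271.1 in OGTi. The summed level of the leukocyte or macrophage markers (3 of 6 were in the files) was 2477 to 4080 in control and 5605 to 9390 in OGTi, of which CD68, a lysosomal protein that is not limited to macrophages, took 2412 to 4023 and 5512 to 9305. The sum of the endothelial markers (5 of 7 in the files) was 75.0 to 98.6 in control and 19.0 to 45.7 in OGTi, that of the hepatocyte markers (3 of 8) 47.1 to 104.0 and 183.8 to 297.1, and that of the epithelial markers (4 of 5) 681.9 to 1151 and 955.0 to 1273. Most of the epithelial sum was SOX9, at 579.7 to 1019 in control and 905.6 to 1196 in OGTi. Whether the shifts of markers that are not collagen genes bear on the collagen results was not tested.

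The 7 genes lie on 6 chromosomes of GRCh38 (hg38). COL1A1 is at chr17:50184101-50201632 on the minus strand, COL1A2 at chr7:94394895-94431227 on the plus strand, COL5A1 at chr9:134641803-134844843 on the plus strand, COL5A3 at chr19:9959561-10010504 on the minus strand and COL11A1 at chr1:102876467-103108872 on the minus strand. COL3A1 (chr2:188974373-189012746, plus strand) and COL5A2 (chr2:189031898-189225312, minus strand) point toward each other, and 19151 bases separate their ends. None of these genes had a fractional expected count in any library.

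The study measured COL1A1, COL1A2 and COL3A1 by RT-qPCR with primers that fall in coding exons, and the sequences show which stretch of each transcript stands for the gene in that assay. They are printed 5′ to 3′ in lower case and were placed on GENCODE transcripts by exact match.
COL1A1 forward: aggcgagagaggtttcc
COL1A1 reverse: atcacctctgtcacccttag
COL1A2 forward: ggcagccagtttgaatataa
COL1A2 reverse: ctgttcttgcagtggtaggt
COL3A1 forward: caggtgctgatggtgtc
COL3A1 reverse: accaccttcacccttatct
The COL1A1 amplicon of 214 bases runs from the junction of exons 30 and 31 (chr17:50191871-50191886 for the part in exon 31) to the junction of exons 32 and 33 of 51 (chr17:50191383-50191396 for the part in exon 32). The COL1A2 amplicon of 122 bases runs from the junction of exons 50 and 51 (chr7:94428469-94428477 for the part in exon 50) into exon 51 of 52 (chr7:94429281-94429300). The COL3A1 amplicon of 104 bases runs from exon 32 (chr2:188999858-188999874) to the junction of exons 33 and 34 of 51 (chr2:189001536-189001547 for the part in exon 34). The COL1A2 reverse primer also matched transcripts of COL1A1 and COL2A1 exactly, while its forward primer and the other 4 primers matched a single gene each. The RNA-seq values below use the reads of the whole gene.

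The mRNA of 6 of the 7 fibrillar collagen genes was lower in OGTi cells. COL3A1 fell furthest, to 17.3% of its control mean, COL1A2, COL5A3, COL5A2 and COL1A1 fell to between 37.9% and 51.8%, and COL5A1 fell to 80.7%. COL11A1 was near the limit of detection and could not be assessed. The log2 fold changes of the 6 genes that DESeq2 gave an adjusted p-value (q) ran from -2.50 to -0.31, with a median of -1.19, against a median of 0.00482 over all genes with a q. All 6 were called lower (q of 0.05 or less) and were lower in 4 of 4 pairs, and the groups did not overlap for 5 of them. Over the 14028 genes with a q, 46.6% were called, 24.0% lower and 22.7% higher, so a lower call by itself was common in these cells. The shares of all genes that were lower in 4 of 4 pairs or had no overlap were not counted. Neither trait is therefore set apart as particular to the fibrillar collagen genes. All 7 members passed the filter of 10 counts in total. In bulk RNA, fewer cells of a type and less RNA per cell cannot be told apart.

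**Figure D1:**
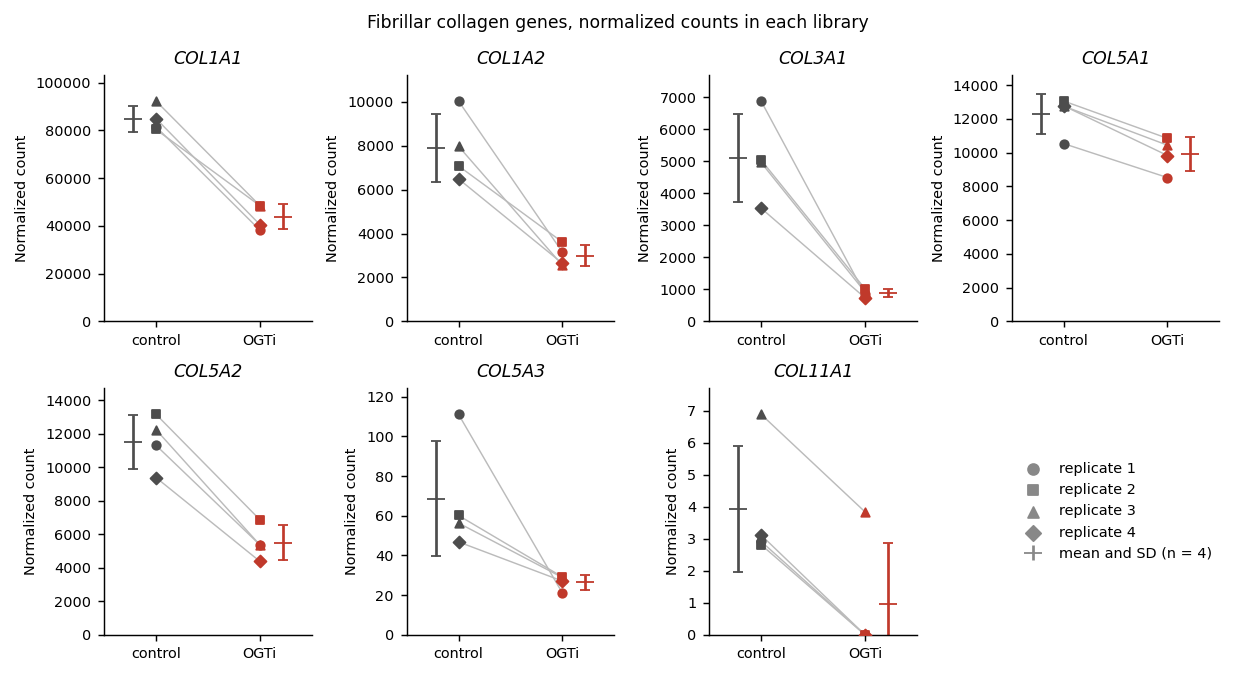
Normalized counts of each fibrillar collagen gene in each library, with the axis of every panel starting at 0; symbols mark the replicate number, grey lines join the control and OGTi library of that number, and crosses give the mean and SD of 4 libraries (the lower SD bar of COL11A1 in OGTi is cut at 0). Every line falls, and the 2 groups overlap for COL5A1 and COL11A1.

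COL1A1, which encodes the main chain of type I collagen, had 81506, 80369, 92289 and 84949 normalized counts in control replicates 1 to 4 and 38220, 48465, 48489 and 40548 in OGTi replicates 1 to 4. The lowest control library was well above the highest OGTi library. The mean went from 84778 ± 5372 to 43931 ± 5335 normalized counts (SD over 4 libraries each), a log2 change of -0.95 ± 0.07 by DESeq2 (estimate ± SE, q = 1.15e-36), and the 4 pairs spanned -1.09 to -0.73. COL1A1 alone took 0.313% ± 0.0129 of all counts in control and 0.173% ± 0.0193 in OGTi. The 7 genes together took 0.450% ± 0.0183 and 0.249% ± 0.0258.

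COL1A2, the partner chain in type I collagen, had 10030, 7076, 7972 and 6487 normalized counts in the control libraries and 3154, 3610, 2555 and 2644 in the OGTi libraries. Control replicate 1 was the highest, and the groups were far apart. The mean went from 7891 ± 1551 to 2991 ± 490, a log2 change of -1.39 ± 0.10 by DESeq2 (q = 2.77e-40), with pairs from -1.67 to -0.97.

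COL3A1, the chain of type III collagen, had 6877, 5039, 4960 and 3534 normalized counts in control and 851.7, 1022, 923.9 and 740.3 in OGTi. Its control libraries varied most among the 5 abundant members, with a coefficient of variation of 26.9% against 6.34% for COL1A1, and its OGTi libraries were close together (13.4%). The highest OGTi library was still far below the lowest control library. The mean went from 5102 ± 1370 to 884.4 ± 118.6, a log2 change of -2.50 ± 0.11 by DESeq2 (q = 3.36e-112). The pairs spanned -3.01 to -2.25.

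COL5A1 encodes the chain present in nearly all type V trimers. It had 10540, 13063, 12760 and 12779 normalized counts in control and 8525, 10850, 10443 and 9833 in OGTi. Control replicate 1 was the low library of its group and lay below OGTi replicate 2, so the ranges overlap, yet each OGTi library was below the control library of its own number by a nearly constant amount (log2 differences of -0.378 to -0.268). The mean went from 12286 ± 1172 to 9913 ± 1015, a log2 change of -0.31 ± 0.06 by DESeq2 (q = 4.20e-06). With no replicate block in the model the change was -0.31 and the call held, with a highest q of 0.0173 over the 12 alternatives.

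COL5A2, the partner of COL5A1 in type V collagen, had 11299, 13148, 12233 and 9377 normalized counts in control and 5364, 6863, 5360 and 4378 in OGTi. Replicate 2 was the highest and replicate 4 the lowest in both groups, and the groups did not overlap. The mean went from 11514 ± 1612 to 5491 ± 1025, a log2 change of -1.08 ± 0.07 by DESeq2 (q = 1.43e-52), with pairs from -1.19 to -0.938.

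COL5A3 encodes the third type V chain and was scarce in LX-2 cells. It had 111.1, 60.1, 56.3 and 46.8 normalized counts in control and 21.0, 29.1, 28.8 and 27.1 in OGTi. Control replicate 1 was far above the other control libraries, and every OGTi library was below every control library. The mean went from 68.6 ± 28.9 to 26.5 ± 3.77, a log2 change of -1.30 ± 0.37 by DESeq2 (q = 0.00162). Pair 1 differed by -2.35 and the other pairs by -1.02 to -0.769. Without pair 1 the change was -0.93 and the call was lost (DESeq2 q of 0.0820), which left 5 of the 7 genes called.

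COL11A1 had 3, 3, 6 and 3 counts in the control libraries and 0, 0, 4 and 0 in the OGTi libraries, 15 and 4 in all. A count of 0 allows up to 3 counts in a library, counting error only. DESeq2 gave no q (unadjusted p of 0.0640), and in the 5 alternative fits that gave one, by DESeq2 or edgeR, the q was 0.122 to 0.250, so a difference was not detectable at this depth.

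**Figure D2:**
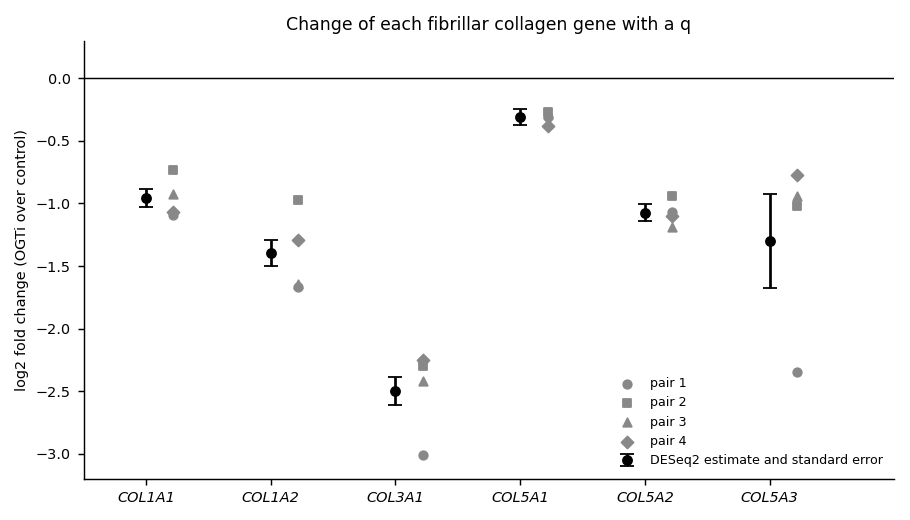
Log2 fold change of OGTi over control (vertical axis) for the 6 fibrillar collagen genes with a q; black points and bars are the DESeq2 estimate and its standard error, and grey symbols are the log2 ratios of the 4 pairs. COL3A1 lies lowest at -2.50, COL5A1 nearest to 0 at -0.31, and for COL5A3 pair 1 (-2.35) stands apart from the other pairs.

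The 4 fibrillar collagen genes of the human genome that are not members were low in LX-2 cells, and DESeq2 called 1 of them, COL11A2, which was higher. COL11A2, a chain of type XI collagen, had 205.6, 246.1, 191.9 and 188.3 normalized counts in control and 350.9, 325.4, 294.2 and 238.4 in OGTi. It was higher in 4 of 4 pairs although OGTi replicate 4 lay below control replicate 2, with a log2 change of 0.53 ± 0.16 by DESeq2 (q = 0.00232). COL27A1 had means of 264.4 ± 81.6 and 194.9 ± 64.9, and its log2 fold change of -0.45 ± 0.21 did not pass (DESeq2 q of 0.0655). It was lower in 3 pairs, was higher in pair 1, and passed without pair 1 (-0.74, DESeq2 q of 0.00118) and in edgeR with the replicate block (-0.44, edgeR q of 0.0387). COL2A1, the cartilage collagen, and COL24A1 totalled 3 and 5 counts in control and 14 and 5 in OGTi.

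Levels of different genes were compared per kb of their longest transcript. COL1A1 stood far above the rest in control cells, at 14335 ± 908 normalized counts per kb, and ranked 47 among 12860 genes. COL5A2 (1686 ± 236), COL5A1 (1455 ± 139), COL1A2 (1317 ± 259) and COL3A1 (929.4 ± 249.6) followed, and the ranges of each neighbouring pair of these 4 genes overlapped. COL5A3 was at 11.1 ± 4.65 and COL11A1 at 0.538 ± 0.27. The type I partner chain COL1A2 was thus in the range of the type V chains in this line.

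In OGTi cells the order changed to COL1A1 (7428 ± 902), COL5A1 (1174 ± 120), COL5A2 (804.1 ± 150.2), COL1A2 (499.0 ± 81.8) and COL3A1 (161.1 ± 21.6). With these longest transcripts no neighbours overlapped. COL5A3 was at 4.27 ± 0.61. COL1A1 kept about the same share of the summed level per kb of the 7 genes, 72.6% ± 2.54 in control and 73.7% ± 1.60 in OGTi. The share of COL5A1 went from 7.39% ± 0.80 to 11.7% ± 0.62 and that of COL3A1 from 4.71% ± 1.26 to 1.60% ± 0.12, with no overlap between the groups for either gene. COL1A2 went from 6.67% ± 1.26 to 4.99% ± 0.83 and COL5A2 from 8.54% ± 1.15 to 7.97% ± 1.02, and both of these overlapped. The place of COL1A2 depends on the length used, because its longest transcript (5993 bases) is longer than its canonical one (5072 bases), and with the canonical length COL1A2 came ahead of COL5A1 in control cells. With the mean length of a gene's transcripts, COL1A2 came ahead of COL5A2 in OGTi cells. The shares depend on it too. With the mean length of a gene's transcripts, COL5A1 went from 4.37% in control to 6.86% in OGTi, COL5A2 from 3.39% to 3.14% and COL3A1 from 2.02% to 0.678%, and COL5A1 was ahead of COL5A2 in both groups.

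**Figure D3:**
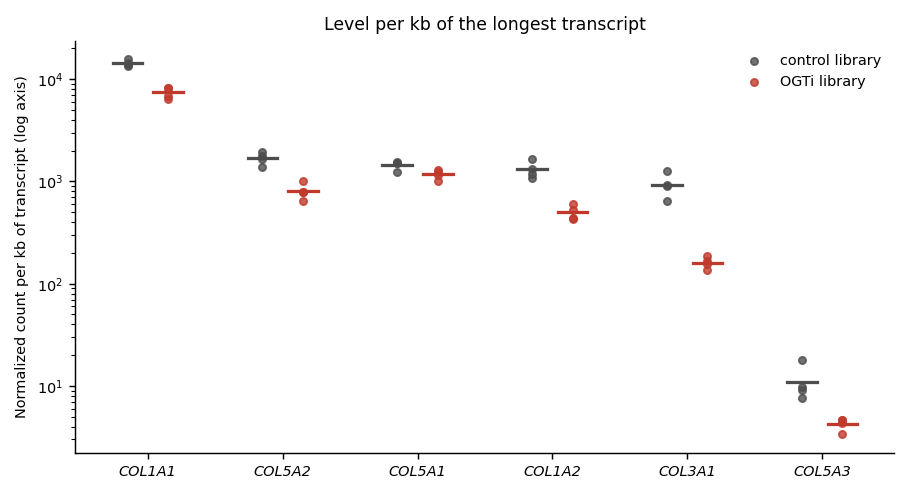
Normalized counts per kb of the longest transcript (vertical log axis) for the 6 fibrillar collagen genes above the limit of detection, ordered by their control mean; each point is a library and each bar the mean of 4. In control, COL5A2, COL5A1, COL1A2 and COL3A1 lie close together between 643.8 and 1925, and in OGTi they spread from 134.8 (COL3A1) to 1285 (COL5A1).

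Chains of the same trimer and neighbours on the chromosome were set against each other as ratios within each library, so that size factors cancel except for the pseudocount. For 7 ratios of chain partners, collagens laid down together or neighbours, a two-sided exact permutation test of 4 against 4 libraries can give no p below 0.0286. Of these, 4 reached it and had a q of 0.05 over the 7 ratios, and the other 3 did not pass. That q equals the threshold, so these 4 pass with no margin. They also share genes and are not independent of each other, and the ratios were chosen with earlier results known. The test takes the libraries as unpaired, because 4 pairs can give no two-sided p below 0.125.

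The COL3A1/COL1A1 log2 ratio of normalized counts was -3.57, -4.00, -4.22 and -4.59 in control and -5.49, -5.57, -5.71 and -5.77 in OGTi. Every OGTi library was below every control library. The difference was -1.54 (exact permutation p of 0.0286), and per kb there were 0.0653 ± 0.0194 COL3A1 for each COL1A1 in control and 0.0217 ± 0.00199 in OGTi. COL3A1 also fell more than its chromosomal neighbour COL5A2. Their log2 ratio was -0.716, -1.38, -1.30 and -1.41 in control and -2.65, -2.75, -2.54 and -2.56 in OGTi, a difference of -1.42 (exact permutation p of 0.0286).

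The common type V partners changed by different amounts. The COL5A1/COL5A2 log2 ratio was -0.10, -0.01, 0.06 and 0.45 in control and 0.67, 0.66, 0.96 and 1.17 in OGTi, a rise of 0.77 in the ratio with no overlap (exact permutation p of 0.0286). Per kb, COL5A1 stood at 0.876 ± 0.155 of COL5A2 in control and at 1.49 ± 0.26 in OGTi, and which of these genes is ahead in control depends on the transcript length used. The COL5A1/COL5A3 log2 ratio was 6.56, 7.74, 7.80 and 8.06 in control and 8.60, 8.49, 8.45 and 8.45 in OGTi, a difference of 0.96 (exact permutation p of 0.0286) that was 0.60 without pair 1. COL5A2 and COL5A3 could not be told apart in their change. Their ratio differed by 0.19 (exact permutation p of 0.657), with pairs from -0.329 to 1.27, a span that still allows a sizeable difference, and without pair 1 it was -0.17.

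For the type I partners, the COL1A1/COL1A2 log2 ratio was 3.02, 3.51, 3.53 and 3.71 in control and 3.60, 3.75, 4.25 and 3.94 in OGTi. It was higher in 4 of 4 pairs, by 0.228 to 0.713, but the groups overlapped, and the difference of 0.44 did not pass (exact permutation p of 0.0571, q of 0.08). Per kb there were 11.2 ± 2.12 COL1A1 for each COL1A2 in control and 15.2 ± 3.02 in OGTi. These per kb values use the longest COL1A2 transcript (5993 bases, against 5072 for the canonical one) and depend on that choice. The COL11A1/COL5A1 ratio rested on libraries with 0 counts and did not pass (exact permutation p of 0.114, q of 0.133).

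**Figure D4:**
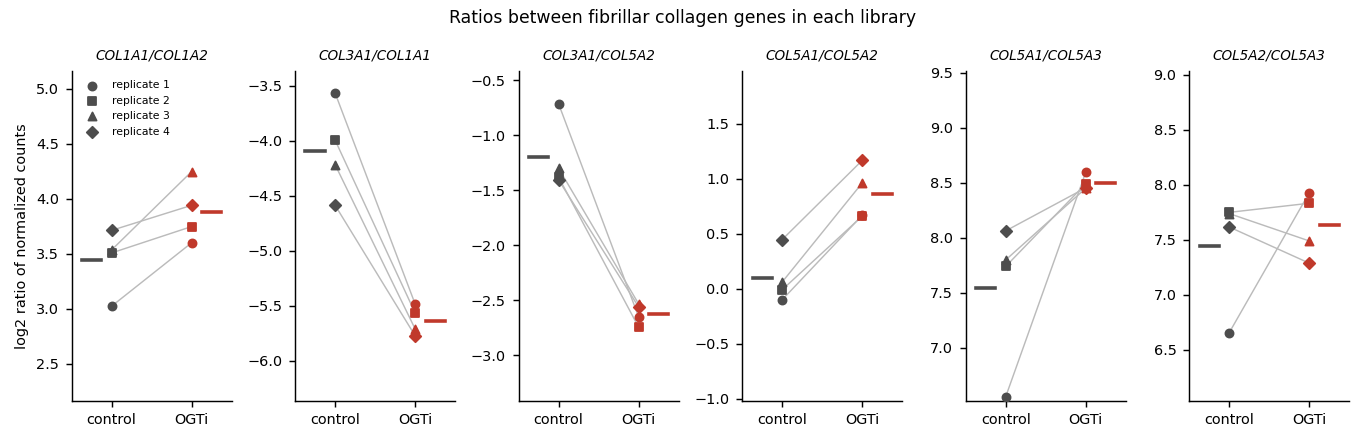
Log2 ratio of normalized counts between pairs of fibrillar collagen genes (vertical axes, each spanning the same number of log2 units) in each library; symbols mark replicates, grey lines join same-numbered libraries and bars are group means. The groups separate for COL3A1/COL1A1, COL3A1/COL5A2, COL5A1/COL5A2 and COL5A1/COL5A3 and overlap for COL1A1/COL1A2 and COL5A2/COL5A3.

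Within groups the members did not vary as a single block. After group means were taken out of the log2 normalized counts, COL1A2 and COL3A1 had a Pearson r of 0.808 over the 8 libraries, COL1A1 and COL5A1 0.692, and COL3A1 and COL5A2 0.642. COL1A1 and COL1A2, which share a trimer, had 0.0196, and COL1A2 and COL5A1 had -0.454. These values describe 8 libraries that share size factors and carry no test. Control replicate 1 was the highest control library for COL1A2, COL3A1 and COL5A3 and the lowest for COL5A1.

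The genes most like the 5 abundant members over the 8 libraries, among 10994 genes that averaged 100 or more normalized counts, were CAVIN2 (r of 0.996), which encodes a coat protein of caveolae, LIMS2 (0.995), an adaptor of integrin adhesions, NCAPD2 (0.994), a condensin subunit, DNMT3A (0.994), a DNA methyltransferase, and ARSI (0.994), an arylsulfatase. All 5 were called lower, with log2 fold changes from -1.94 for CAVIN2 to -0.83 for NCAPD2. With group means removed, the closest were ZNF576 (0.979), SOCS1 (0.977), PCLAF (0.974), KEAP1 (0.974) and LPIN3 (0.973). None of these was called lower, and ZNF576, SOCS1 and KEAP1 were called higher, with log2 fold changes of 0.30, 0.60 and 0.27. The sets of 5 shared no gene, and the first measure contains the difference between the groups that the members show. Both sets are the highest values among 10994 genes over 8 libraries and carry no test, so r values this high can arise by chance.

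Promoter sequence was found in RefSeq (GRCh38.p14) for 3 of the 7 members, COL5A1, COL5A3 and COL11A1. The 250 bases before the start site of the type V genes that differed in their change are printed 5′ to 3′ on the gene's strand, with motif matches in capitals.
COL5A1, chr9:134641553-134641802, plus strand: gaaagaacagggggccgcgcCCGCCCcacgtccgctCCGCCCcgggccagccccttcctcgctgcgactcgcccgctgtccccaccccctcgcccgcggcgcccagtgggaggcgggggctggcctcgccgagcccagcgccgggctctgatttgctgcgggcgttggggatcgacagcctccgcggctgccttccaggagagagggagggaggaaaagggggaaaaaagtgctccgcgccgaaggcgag
COL5A3, chr19:10010505-10010754, minus strand: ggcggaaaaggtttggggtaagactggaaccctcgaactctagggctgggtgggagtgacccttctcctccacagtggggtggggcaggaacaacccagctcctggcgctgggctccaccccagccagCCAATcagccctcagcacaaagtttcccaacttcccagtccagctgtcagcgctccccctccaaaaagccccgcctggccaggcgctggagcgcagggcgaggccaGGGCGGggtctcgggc
Both strands were searched for 6 motifs, which were CCAAT, the GC box bound by SP1 (GGGCGG), the element of TEAD factors (GGAATG), the TATA box (TATAAA), the element of AP-1 (TGANTCA) and that of SMAD factors (CAGAC). COL5A1 held 2 GC boxes, at -230 and -214, and no CCAAT box, and COL5A3 held a CCAAT box at -122 and a GC box at -16. The COL11A1 window (chr1:103108523-103108772, minus strand) held 3 GC boxes, a CCAAT box at -110 and a SMAD match at -105. This window lies inside the COL11A1 span given above, so its positions are counted from a start site within that span. No match overlapped another. Over 27305 promoters of the same length, 42.3% held the GC box, 33.0% CCAAT, 37.8% CAGAC, 11.9% GGAATG, 11.1% TATAAA and 6.6% TGANTCA, so each of these matches is common. The windows were richer in GC (74.0%, 66.0% and 68.8%) than the median promoter (58.0%).

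The genes that act on fibrillar collagens before and after transcription were grouped by role, and their counts stand beside 24.0% lower and 22.7% higher over all genes with a q. Among 35 regulators of collagen genes or their mRNA, 17 were called lower, 6 higher and 12 were not called, with a median log2 fold change of -0.20. TGFB2, a profibrotic ligand that stellate cells secrete, fell from 9884 ± 1895 to 863.1 ± 222.5 normalized counts (-3.54 ± 0.09). RUNX2, a transcription factor of skeletal matrix genes, fell by 1.19 (q of 5.50e-22), and NFYB, a subunit of the factor that binds the CCAAT box, fell by 1.09 (q of 4.67e-18). The other subunits of that factor, NFYA (0.22, q of 0.0899) and NFYC (0.12, q of 0.253), did not pass. LARP6, which binds the stem-loop of type I collagen mRNAs, was higher by 0.20 (q of 0.0304). SMAD2, SMAD3, TEAD1, TEAD2, TEAD3, TEAD4, YAP1 and BNC2 were called lower, SMAD4 was not called, and WWTR1, which encodes the YAP1 relative TAZ, was higher by 0.34 (q of 0.000670). These 10 genes, NFYA, NFYC and LARP6 were named after their values were seen. All q in the accounts of these lists are from DESeq2 over all genes.

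Of 23 genes for folding and hydroxylating procollagen, 6 were lower, 7 higher and 10 not called, with a median of 0.06, which is near the share over all genes (24.0% lower, 22.7% higher). The falls were led by FKBP10, a collagen prolyl isomerase (4922 ± 402 to 2576 ± 304, -0.94 ± 0.07, q of 4.81e-35), SEC23A, a coat protein that exports procollagen from the endoplasmic reticulum (-0.85 ± 0.07, q of 1.79e-33), and COLGALT1, which adds galactose to hydroxylysine (-0.67 ± 0.07, q of 9.91e-22). P4HA1, a catalytic subunit of prolyl 4-hydroxylase, rose from 436.9 to 874.5 (1.0 ± 0.11, q of 2.92e-19), and MIA3, the procollagen cargo receptor TANGO1, rose by 0.70 (q of 8.47e-18). SERPINH1, the collagen chaperone HSP47, changed by -0.24 on the log2 scale (q of 0.0181) and was lower in 3 of 4 pairs. P4HA1, MIA3 and SERPINH1 were chosen after their values were seen.

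Of 10 genes for procollagen proteinases and their enhancers, 6 had a q, 4 of them lower and 1 higher, with a median of -0.35. TLL1, a tolloid proteinase that trims the C-terminal end, fell from 2178 ± 401 to 589.2 ± 158.8 (-1.91 ± 0.10, q of 4.80e-74). ADAMTS2, which removes the N-terminal propeptide, fell by 1.38 (q of 2.45e-08) and BMP1, the main C-proteinase, by 0.38 (q of 1.60e-05). The gene called higher, TLL2, went from 1.95 ± 2.0 to 19.2 ± 19.2 (q of 0.00116), and without pair 2 it did not pass (q of 0.0565). All 5 lysyl oxidase genes, whose enzymes cross-link fibrils, had a q and 4 were lower, with a median of -0.61. LOXL2 fell by 0.61 (q of 2.90e-15), LOXL1 by 0.50 (q of 9.54e-09) and LOX by 0.37 (q of 9.71e-05).

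For genes whose proteins sit on the fibril, the share over all genes to set beside the counts is again 24.0% lower. The 3 fibril-associated collagens with a q of 10 listed were all lower, with COL12A1 going from 27301 ± 4848 to 13226 ± 2384 (-1.04 ± 0.07, q of 3.39e-50), COL9A2 falling by 1.57 (q of 5.33e-05) and COL16A1 by 0.52 (q of 0.000662). Of 14 fibril assembly partners, 9 had a q, of which 7 were lower and 2 not called, with a median of -0.54, and edgeR with the replicate block called 1 higher. Without the replicate block DESeq2 called 5 of them lower. THBS2, a matricellular protein, fell by 1.28 (q of 3.46e-54), FBN1, the core of microfibrils, by 0.61 (q of 3.20e-15) and SPARC, which binds fibrillar collagen, by 0.54 (q of 3.86e-15).

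Of 10 collagen receptor and uptake genes, 4 were higher, 2 lower and 4 not called, with a median of 0.37, beside 22.7% higher and 24.0% lower over all genes. Without the replicate block 3 were higher. ITGA2, the collagen-binding integrin subunit alpha 2, rose from 406.1 ± 55.5 to 988.8 ± 260.8 (1.26 ± 0.15, q of 1.25e-16). DDR2, a receptor kinase for fibrillar collagen, rose by 0.76 (q of 6.43e-20) and ITGA1 by 0.45 (q of 4.75e-06). ITGB1, the beta subunit that pairs with these integrins, changed by -0.22 (q of 0.00301) and, like P4HA1, was named after its value was seen. Without pair 2 or pair 3 the list had 1 gene called lower.

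Of 7 genes listed as fibrillar collagen proteinases, 4 had a q, 1 higher and 1 lower, with a median of -0.15. These counts are near the share over all genes with a q (24.0% lower, 22.7% higher). FAP, fibroblast activation protein, was near 0, at 1.23 ± 1.84 in control and 4.46 ± 4.57 in OGTi, and had no q. MMP1, the interstitial collagenase, had 762.8, 506.3, 378.1 and 352.6 normalized counts in control and 4193, 1434, 536.5 and 591.0 in OGTi. Its rise (1.3 ± 0.42, q of 0.00596) was far larger in replicate 1 than in the others, the groups overlapped, and without pair 2 it did not pass (q of 0.0818). MMP2, a gelatinase, changed by -0.29 (q of 0.0260) and lost its call without the replicate block (q of 0.778) and without pair 1 (q of 0.491), pair 2 (q of 0.266) or pair 4 (q of 0.109). Without any of these pairs no proteinase was called lower.

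**Figure D5:**
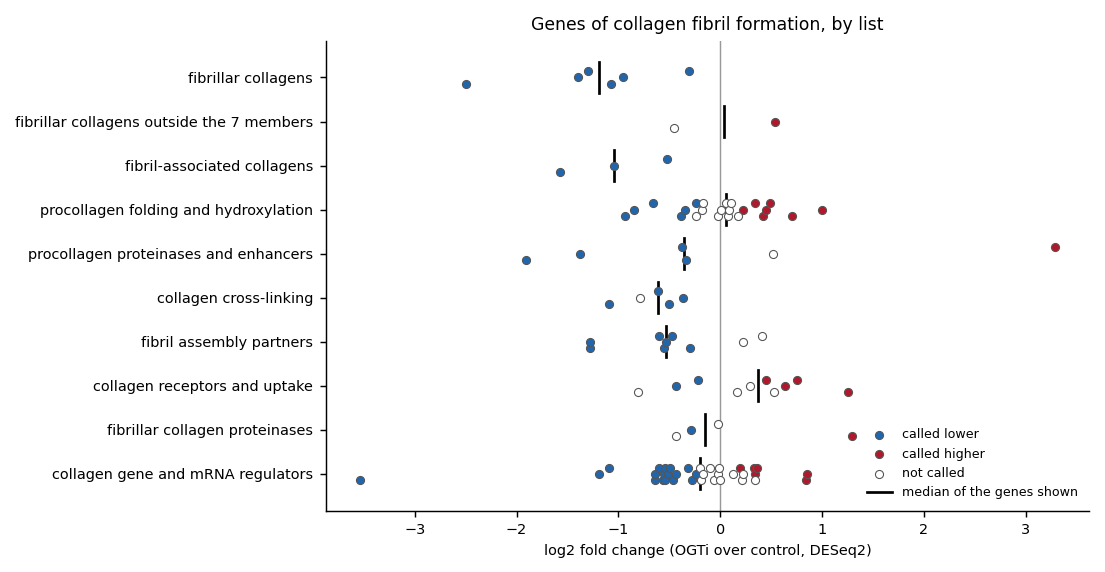
DESeq2 log2 fold change of OGTi over control (horizontal axis) for every gene with a q in each list of collagen genes (rows); blue points were called lower, red points higher, open points were not called, and black bars are the list medians. The medians of the fibrillar (-1.19) and fibril-associated collagens (-1.04) lie furthest to the left, folding genes lie on both sides of 0, and the median of the receptors is 0.37.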

How the data were processed

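RNA-seq of LX-2 cells was done on poly(A)-enriched, strand-specific libraries. Per the labels, the authors aligned reads to hg38 (Bowtie2 2.3.5.1) and deposited RSEM 1.3.1 expected counts per gene, which share reads with several alignments between genes and are not scaled for depth. A deposited comparison table (mean, log2 fold change, standard error, statistic, p-values) was not used. Groups came from sample titles. The expected counts were rounded, genes with a total under 10 left out, and the Wald test of DESeq2 1.42.0 (R 4.3.3) was run on the remaining 14895 genes with replicate number as a block. Independent filtering was on, fold changes were not shrunken, and q (Benjamini-Hochberg) was called at 0.05. Same-numbered libraries, paired in the study's methods, deviated together from their group means (Pearson r of 0.138 to 0.379 over 11702 genes). Numbers 3 and 4 were not told apart by this measure. The r between control 3 and OGTi 4 (0.272) was above that within number 3 (0.138) and that within number 4 (0.269). The r between control 4 and OGTi 3 (0.201) was also above that within number 3. Ratios used a pseudocount of 1 and exact permutation tests in SciPy 1.17.1. Symbols were matched to GENCODE for 16247 of 16796 genes. The script was tested on simulated data. Alternatives included edgeR 4.0.16, other size factors and filters, a GC trend and each pair left out. The members, gene lists and ratios were chosen with earlier results of these data known. Named genes were all 7 members, for each list the 3 with the largest absolute Wald statistic, and the 5 most like the members by each measure. Depth limits genes near 3 counts, and the floor given for a count of 0 covers counting error only. The standard errors of DESeq2 also hold the variation between replicates.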

Additional observations from a re-analysis of the deposited data

Results flagged for a closer look

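In 86 groups of 4 libraries (members, other fibrillar collagens, ratios, named list genes and totals), 8 held a library whose gap to the nearest other library took more of the group's range than Dixon's 95% critical value allows. Chance flags about 1 in 20 groups, or 4.3 here. For COL5A1, control replicate 1 had 10540 normalized counts and the other control libraries 12760 to 13063. The COL3A1/COL5A2 log2 ratio of control replicate 1 was -0.716 and those of the others -1.41 to -1.30, and its COL5A2/COL5A3 log2 ratio was 6.66 against 7.62 to 7.75. For COL11A1, control replicate 3 had 6.90 normalized counts (others 2.82 to 3.12) and OGTi replicate 3 had 3.85 (others 0), which also gave that library a COL11A1/COL5A1 log2 ratio of -11.1 (others -13.4 to -13.1). COL2A1 had 0 in control replicate 2 and 0.974 to 1.15 in the others. DDR2 had 4468 in OGTi replicate 1 and 5072 to 5118 in the others. Of the 8 values, 3 belong to control replicate 1, and no library was left out of the values reported.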

How the results depend on the processing

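The 7 member log2 fold changes kept their direction in all 82 fits under alternatives, and the 6 members with a q kept the side of the threshold in 71 of 72. The exception was COL5A3 without pair 1 (-0.93, DESeq2 q of 0.0820). Leaving out each pair gave -1.03 to -0.91 for COL1A1, -1.54 to -1.30 for COL1A2, -2.58 to -2.33 for COL3A1, -0.32 to -0.29 for COL5A1, -1.12 to -1.04 for COL5A2 and -1.47 to -0.93 for COL5A3. Without the replicate block DESeq2 called 6307 genes, against 6541 with it, and edgeR 6041, against 7074 with it, and the block changed no call of a member. Among named list genes 303 of 312 values kept their side, and the exceptions were COL27A1, MMP1, MMP2 and TLL2. The counts called in each list stayed within 1.5 times in 203 of 216 cases, and the rest were counts of at most 6 genes. Of 42 ratio values 41 kept their direction, and the exception was COL5A2/COL5A3 without pair 1 (-0.17), a ratio that had not passed. The 14 with a test kept their side of the threshold, but they are a weak check. They came from a smaller pseudocount and from unrounded counts. Unrounded counts could not move a ratio, because these genes had no fractional counts. Ratios with a pair left out carried no test. COL5A1/COL5A3 was 0.60 without pair 1. The share of COL1A1 moved with the mean transcript length to 84.6% in control and 85.2% in OGTi, and with the coding length to 71.6% in OGTi. With the mean length the shares of COL3A1, COL5A1 and COL5A2 fell by over 1.5 times, as given with them. With the mean length COL1A2 ranked ahead of COL5A1 and COL5A2 in control and ahead of COL5A2 in OGTi. The canonical length was added after seeing the data.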
